A study of Homo sapiens with 4 samples.

Results

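Clustered histone genes were followed across 4 microarrays of SCP2 cells, which derive from the human breast cancer line MDA-MB-231 and colonise bone. The members are the probe sets whose only gene symbol begins with H1-, H2AC, H2BC, H3C or H4C, leaving out pseudogenes. This gave 54 probe sets of 46 genes among the 54675 probe sets of the array, after 3 pseudogene probe sets and 1 probe set of the antisense RNA H1-10-AS1 had been set aside. Of these genes, 40 lie on chromosome 6, 25 of them between 25726777 and 26285534 and 15 between 27132316 and 27893891 in the RefSeq table for GRCh38.p14. The remaining 6, H2BC21 and H2AC25 on chromosome 1, H1-10 and H1-8 on chromosome 3, H1-7 on chromosome 12 and H2BC12L on chromosome 21, carry the same name prefixes outside that cluster.

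The 4 groups were vector control cells, vector control cells given TGF-beta, DLC1-overexpressing cells and DLC1-overexpressing cells given TGF-beta, with 1 array a group. The dose and duration of TGF-beta and the number of DLC1 clones were not stated in the labels. No group has a replicate array, so no p-value is given, precision is limited by the number of arrays, and a gene was counted as changed only where 2 arrays were 2-fold or more apart (1 on the log2 scale). The DLC1 transcript did not settle the labels: its probe set 210762_s_at read 1.77 and 3.38 in the vector and DLC1 arrays without TGF-beta, while 224822_at read 1.79 and 1.44. The second group of arrays is therefore called the arrays labelled DLC1. The mesenchymal markers VIM and CD44 read at least 160 and 56.3 on every array. Of 6 luminal or epithelial markers 5 reached 0.38, the median of all values, with summed intensities of 74.1 to 83.9, led by KRT18. Of 3 markers each, leukocyte, endothelial and fibroblast lists had 1 gene past that value, CD14 at 1.08 to 1.67, PECAM1 at 0.67 to 0.85 and PDGFRB at 0.48 to 0.69. Their summed intensities were 1.58 to 2.15, 1.03 to 1.28 and 0.91 to 1.09, and PTPRC, CDH5 and LUM stayed at or below 0.29, 0.11 and 0.15.

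Histones are the proteins around which DNA is wound: H2A, H2B, H3 and H4 form the core of the nucleosome, and H1 binds the linker between nucleosomes. The clustered genes are transcribed mainly in S phase, when new DNA has to be packaged. Their usual mRNAs have no intron and end in a stem-loop bound by the protein SLBP instead of a poly(A) tail, whereas the replication-independent variants, such as H2AZ1 and H3-3A, give polyadenylated mRNA. RNA for these arrays was reverse-transcribed from oligo-dT primers, so the signal of a clustered gene comes from whatever part of its RNA could be primed, and a different amount of mRNA and a different share of tailed mRNA cannot be told apart. In bulk cells, fewer cells in S phase and less histone mRNA per cell cannot be told apart either.

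The promoters of 4 members are shown because the first 3 of these genes had among the lowest values in the arrays labelled DLC1 relative to vector, while H2BC21 read higher there. Each is the RefSeq window of 300 bases on GRCh38.p14, from 250 bases before to 50 after the gene's start, 5′ to 3′ on the minus strand that carries the gene. They lie at chr6:26123877-26124176 for H2BC4, chr6:27132746-27133045 for H2BC11, chr6:26285485-26285784 for H4C8 and chr1:149886633-149886932 for H2BC21. Capitals mark matches on either strand to the TATA box (TATAAA), the CCAAT box (its 5 letters), the octamer of H2B promoters (ATTTGCAT) or the core of the H4 promoter element (GGTCC).
H2BC4: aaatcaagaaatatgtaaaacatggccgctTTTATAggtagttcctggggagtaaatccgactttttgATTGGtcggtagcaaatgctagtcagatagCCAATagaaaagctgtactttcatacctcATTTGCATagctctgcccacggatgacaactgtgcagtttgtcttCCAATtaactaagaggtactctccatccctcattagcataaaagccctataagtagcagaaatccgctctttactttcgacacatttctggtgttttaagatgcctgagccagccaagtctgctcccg
H2BC11: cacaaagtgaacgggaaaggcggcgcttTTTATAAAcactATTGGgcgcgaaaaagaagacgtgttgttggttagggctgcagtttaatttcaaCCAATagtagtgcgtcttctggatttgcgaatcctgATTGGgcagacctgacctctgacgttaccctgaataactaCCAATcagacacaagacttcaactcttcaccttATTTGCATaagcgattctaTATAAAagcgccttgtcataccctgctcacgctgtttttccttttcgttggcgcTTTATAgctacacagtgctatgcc
H4C8: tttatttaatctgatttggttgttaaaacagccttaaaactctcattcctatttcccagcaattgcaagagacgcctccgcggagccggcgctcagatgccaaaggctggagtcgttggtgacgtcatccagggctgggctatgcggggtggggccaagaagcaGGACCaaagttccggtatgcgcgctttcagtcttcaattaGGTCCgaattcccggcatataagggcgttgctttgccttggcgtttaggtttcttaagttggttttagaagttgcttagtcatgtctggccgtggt
H2BC21: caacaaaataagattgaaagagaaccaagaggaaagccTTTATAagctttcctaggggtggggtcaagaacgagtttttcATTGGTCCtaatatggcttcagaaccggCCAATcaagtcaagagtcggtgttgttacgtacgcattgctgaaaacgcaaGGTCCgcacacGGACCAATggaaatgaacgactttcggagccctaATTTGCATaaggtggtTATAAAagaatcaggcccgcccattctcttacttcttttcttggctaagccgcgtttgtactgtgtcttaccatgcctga

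These letters are known elements of histone promoters. The table held 47 windows of 43 member genes. H2BC12L, H3C11 and H4C1 had no entry. ATTTGCAT was found in 11 of 15 H2B windows and 6 of 8 H2A windows, against 1.77% of all 35116 promoter windows of the same length, and in none of the H1, H3 and H4 windows. GGTCC was found in 6 of 7 H4 windows and 46.3% of all windows. CCAAT was found in 40 of the 47 windows and 34.6% of all, and TATAAA in 30 and 11.5%. Within single member windows, 7 pairs of matches to different letters overlapped, as GGTCC and CCAAT do in the H2BC21 window. The octamer begins 123 bases before the start in H2BC4, 47 before it in H2BC11 and 46 before it in H2BC21. These letters are thus present in H2BC21, which read higher, and in H2BC4 and H2BC11, which read lower. The windows of H2BC5, which read lower too, do not hold them. A match is a description of the sequence and shows no binding.

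Since ratios of the dimmest values are coarse, a probe set was kept where the highest of its 4 intensities reached 0.38, the median of all values. This kept 27 members of 25 genes, and 29246 of all probe sets. The kept members nearest the limit were H1-4 and H1-6, with highest values of 0.44 and 0.49, and those just under it were H2AC15 at 0.36 and H1-7 and H2BC17 at 0.35. The deposited intensities have an unstated scale and depend on each probe set's own probes, so levels are not compared between genes. Core histone paralogs of a class are similar in coding sequence, which was not compared here. Of the kept members, 8 have names ending in _x_at, which marks probes that can bind several transcripts. Another 20 probe sets list several histone genes and are no members. A member's signal can therefore include its paralogs, and members are not independent of each other.

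In the arrays labelled DLC1, most kept histone probe sets read lower than in the vector arrays. The median member difference without TGF-beta was a log2 value of -0.41, and with TGF-beta -0.45, where all kept probe sets had medians of 0 and -0.01. Values under 0 were found for 23 of the 27 kept members without TGF-beta, against 48.7% of all kept probe sets, and for 22 with it, against 50.6%. The sizes were modest: 1 member, a probe set of H4C8, passed 2-fold lower without TGF-beta, against 1.83% of all kept probe sets, and 0 did with TGF-beta, against 1.45%. None passed 2-fold higher, where 2.27% and 1.77% of all did. At 1.5-fold, 10 members were lower without TGF-beta and 7 with it, against 7.38% and 6.28% of all, and 7 were lower in both states, against 4.14%. Those 7 are 1 probe set each of H1-2, H2BC4, H2BC5, H2BC9 and H2BC11 and both of H4C8. In both states 0 members were 2-fold lower, against 0.868% of all, and 0 were 1.5-fold higher, against 4.62%.

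The differences without and with TGF-beta share no array. In 21 of the 27 kept members both arrays labelled DLC1 read below both vector arrays, an order held by 29.8% of all kept probe sets, and in 2 members, H2BC21 and H4C9, both read above, against 30.5%. The groups of arrays overlapped in the other 4, H1-6, H2BC15, H3C2 and H4C11. Because the filter takes the highest array, the same count is given without it: 26 of all 54 members had both arrays labelled DLC1 lowest, against 23.4% of all probe sets, and the medians over all 54 were -0.21 and -0.22. The vector array without TGF-beta was the highest of the 4 for 20 kept members, against 27.7% of all kept probe sets, and the DLC1-labelled array with TGF-beta the lowest for 18, against 24.6%.

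**Figure D1:**
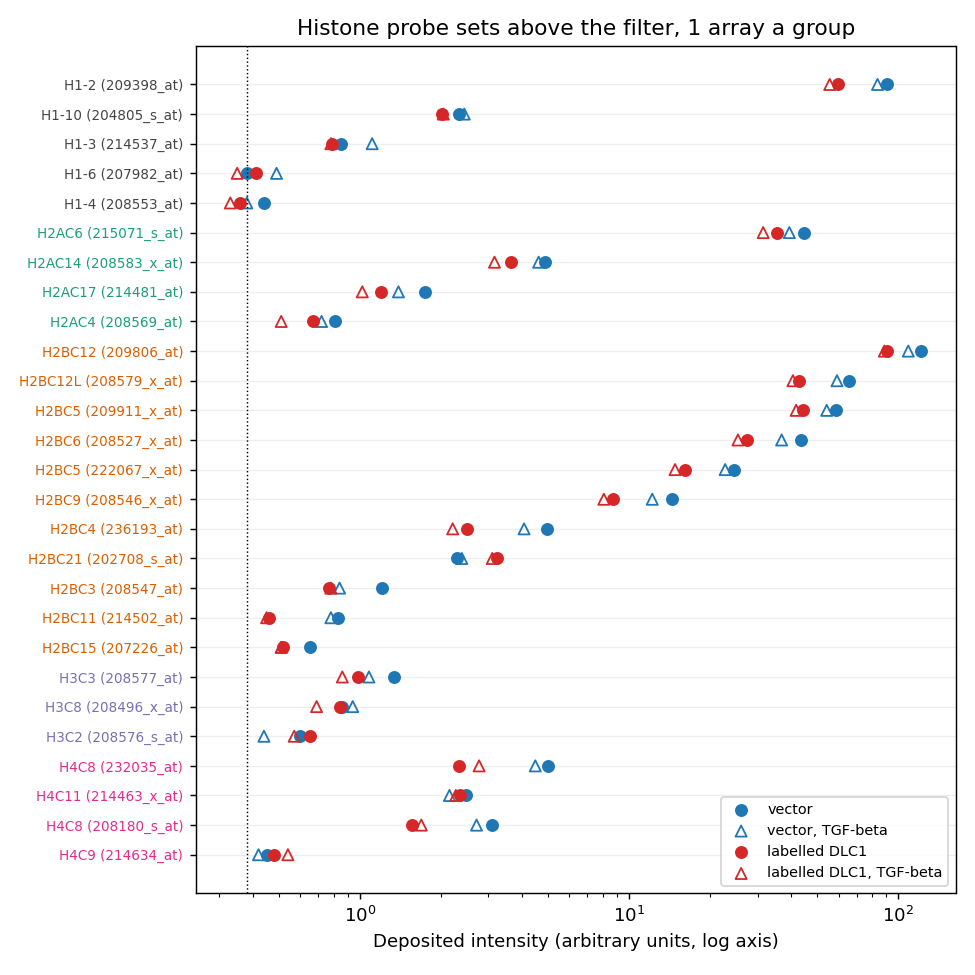
Deposited intensity (log axis, arbitrary units) of each of the 27 kept histone probe sets on the 4 arrays, grouped by histone class, with circles for arrays without and triangles for arrays with TGF-beta, blue for vector and red for arrays labelled DLC1; the dotted line is the filter at 0.38. Both red symbols lie left of both blue ones in 21 rows, and right of them for H2BC21 and H4C9.

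The H2B genes held the most kept members, 11 probe sets of 10 genes. Their median differences were -0.61 without TGF-beta and -0.54 with it, and 9 of the 11 had both arrays labelled DLC1 below both vector arrays. H2BC4, on chromosome 6 at 26113170-26123926, read 4.94 in the vector array, 4.07 with TGF-beta, 2.49 in the DLC1-labelled array and 2.21 there with TGF-beta. The arrays do not overlap, and the differences were 1.98-fold without and 1.84-fold with TGF-beta, just under the 2-fold size. H2BC11, at 27132316-27132795, read 0.83, 0.78, 0.46 and 0.45 in the same order. Those values are separate too, 1.80-fold and 1.73-fold lower in the arrays labelled DLC1, but they are dim.

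The H2B probe sets with the strongest signal also read lower in the arrays labelled DLC1, by smaller differences than H2BC4. H2BC12, at 27138293-27146858, read 121 and 109 in the vector arrays without and with TGF-beta and 91.1 and 88.7 in the arrays labelled DLC1, differences of -0.41 and -0.30. For H2BC12L the values were 65.3 and 59.1 against 42.8 and 40.6. Neither gene's arrays overlapped. H2BC6 read 43.3 and 36.8 against 27.4 and 25.4, and H2BC9 14.5 and 12.2 against 8.74 and 8.05, which gave -0.66 and -0.54 for H2BC6 and -0.73 and -0.60 for H2BC9. The 2 probe sets of H2BC5 differed by -0.40 and -0.38 and by -0.60 and -0.62, without and with TGF-beta in turn. All of these but H2BC12 are _x_at probe sets, and how much of each signal comes from paralogs was not tested.

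H2BC3 and H2BC15 showed the lower values mainly without TGF-beta. H2BC3 read 1.21 in the vector array and 0.84, 0.77 and 0.78 in the others, so the untreated vector array alone stood above. H2BC15 read 0.65 there and 0.51, 0.52 and 0.51 in the others, with equal values of 0.51 in both TGF-beta arrays.

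H2BC21, on chromosome 1 at 149884459-149886682, went the other way from the other H2B genes. It read 2.29 and 2.39 in the vector arrays and 3.22 and 3.10 in the arrays labelled DLC1, without and with TGF-beta. The arrays did not overlap, and the differences were 0.49 and 0.38, below the 2-fold size. Its RefSeq span of 2224 bases is longer than that of most kept members. H2BC4, H2BC5 and H2BC12 have longer spans and read lower in the arrays labelled DLC1. The 6 kept members with spans over 1000 bases had medians of -0.41 and -0.34, and the 21 shorter ones -0.42 and -0.49. The part of gene span in these values was not tested.

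Of the H4 genes, H4C8 differed most of all kept members without TGF-beta. Its probe set 232035_at read 4.99 and 4.48 in the vector arrays without and with TGF-beta, and 2.34 and 2.77 in the arrays labelled DLC1. That is 2.13-fold lower without TGF-beta, past the 2-fold size, and 1.62-fold lower with it. Its other probe set, 208180_s_at, read 3.09 and 2.71 against 1.56 and 1.69, with differences of -0.99 and -0.68. Both sets of H4C8, at 26285126-26285534 on chromosome 6, thus separated the arrays.

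Over the 4 kept H4 members the medians were -0.53 and -0.30, but 2 of the 4 are the probe sets of H4C8, so these medians lean on that gene. The differences were -0.07 and 0.08 for H4C11 and 0.09 and 0.36 for H4C9. The other kept H4 genes, H4C11 and H4C9, did not share the difference of H4C8. H4C11 read 2.47 and 2.15 in the vector arrays and 2.36 and 2.27 in the others, which overlap. H4C9 read 0.45 and 0.42 against 0.48 and 0.54, slightly higher in the arrays labelled DLC1 and close to the filter. All H4 genes encode nearly the same protein.

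The H2A genes had 4 kept members, and in each of them both arrays labelled DLC1 read lower, with medians of -0.38 and -0.47 and 0 members past 1.5-fold. H2AC6 read 44.7 and 39.3 in the vector arrays and 35.5 and 31.5 in the arrays labelled DLC1, without and with TGF-beta. H2AC14 read 4.86 and 4.61 against 3.63 and 3.16. H2AC17 read 1.75 and 1.39 against 1.20 and 1.02, and H2AC4 0.81 and 0.72 against 0.67 and 0.51. In the RefSeq windows, 4 pairs of H2A and H2B members share promoter sequence in opposite orientation. Only H2BC4 and H2AC6, whose windows share 255 bases, were both kept: H2BC4 differed by -0.99 and -0.88, and its neighbour by -0.33 and -0.32.

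Among H3 genes, 3 members were kept and all were dim. H3C3 read 1.34 and 1.08 in the vector arrays and 0.98 and 0.86 in the arrays labelled DLC1, a separate but small difference. H3C8 read 0.86 and 0.94 against 0.84 and 0.69, where the untreated arrays nearly coincide and their difference of -0.03 turns to 0.08 with the arrays centred on the housekeeping list. H3C2 read 0.60 and 0.44 against 0.65 and 0.57, and these overlap. Over the 3 kept H3 members the medians were -0.03 and -0.33, or 0.08 and -0.21 with the arrays centred on the housekeeping list. Over all 8 H3 members, most of them under the filter, the medians were 0.14 and 0.16, above 0 in both states.

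The linker gene H1-2, at 26055740-26056470 on chromosome 6, read 91.0 and 83.6 in the vector arrays and 59.7 and 55.6 in the arrays labelled DLC1, differences of -0.61 and -0.59 without and with TGF-beta. The arrays did not overlap. H1-10, a replication-independent linker gene on chromosome 3, read 2.34 and 2.44 against 2.02 and 2.04, and so differed by less. H1-3 read 0.85 and 1.11 against 0.79 and 0.78, and H1-4 0.44 and 0.38 against 0.36 and 0.33. H1-6, a testis gene, read 0.38 and 0.49 against 0.41 and 0.35, at the filter. Over the 5 kept H1 members the medians were -0.21 and -0.49.

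**Figure D2:**
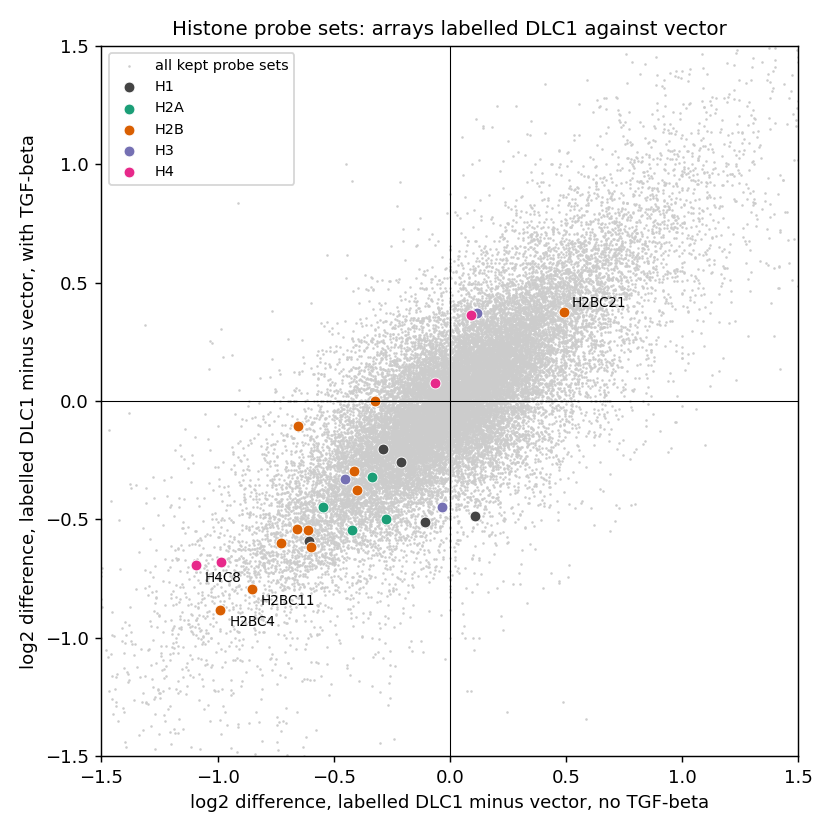
Log2 difference of the arrays labelled DLC1 minus vector without TGF-beta (horizontal) and with it (vertical), with the 27 kept histone members coloured by class over all kept probe sets in grey; grey points beyond 1.5 on either axis are not shown. 21 members lie below 0 on both axes, against 38.4% of all kept probe sets, and 3 above 0 on both, against 37.6%, with H4C8, H2BC4 and H2BC11 at the lower left and H2BC21 at the upper right.

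Signal strength and probe type were set beside these differences. The 8 kept members with a mean intensity of at least 10 all lay below 0 in both states, with medians of -0.60 and -0.54, where the 4827 kept probe sets that bright had medians of -0.03 and -0.02. The 10 members with a mean under 1 had medians of -0.19 and -0.32. Members ending in _x_at had medians of -0.51 and -0.54, and members ending in plain _at, which do not carry that mark, -0.43 and -0.47. The 5 members ending in _s_at had smaller medians of -0.21 and -0.26, with 3 below 0 and 2 above it in each state. The 14 kept probe sets that list several histone genes, which are no members, had medians of -0.56 and -0.52, and 13 of them lay below 0 in each state. They measure the same families, so they are no independent sample of genes.

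The members under the filter were of every class: 7 probe sets of H1, 6 of H2A, 4 of H2B, 5 of H3 and 5 of H4. Their highest values ran from 0.09 to 0.36, where rounding alone moves a ratio, as from 0.08 to 0.09 by 0.17 on the log2 scale. Their medians were -0.07 without and -0.09 with TGF-beta. The germline genes H1-7, H1-8 and H2BC1 were among them.

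With TGF-beta, the kept members differed little. Their median difference was -0.16 between the vector arrays and -0.10 between those labelled DLC1, against 0 and -0.02 for all kept probe sets, and 22 of 27 lay below 0 in each, against 50.2% and 53.2%. None passed 2-fold in either direction; of all kept probe sets, 1.69% did between the vector arrays and 0.773% between those labelled DLC1. In 3 members, H2BC15, H3C2 and H4C11, both TGF-beta arrays read below both untreated ones, against 13.2% of all kept probe sets. The 12 bacterial poly(A) spike-in control sets were all below 0 with TGF-beta too, with medians of -0.15 and -0.16, about the size of the members' medians, and their part in these values was not tested.

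**Figure D3:**
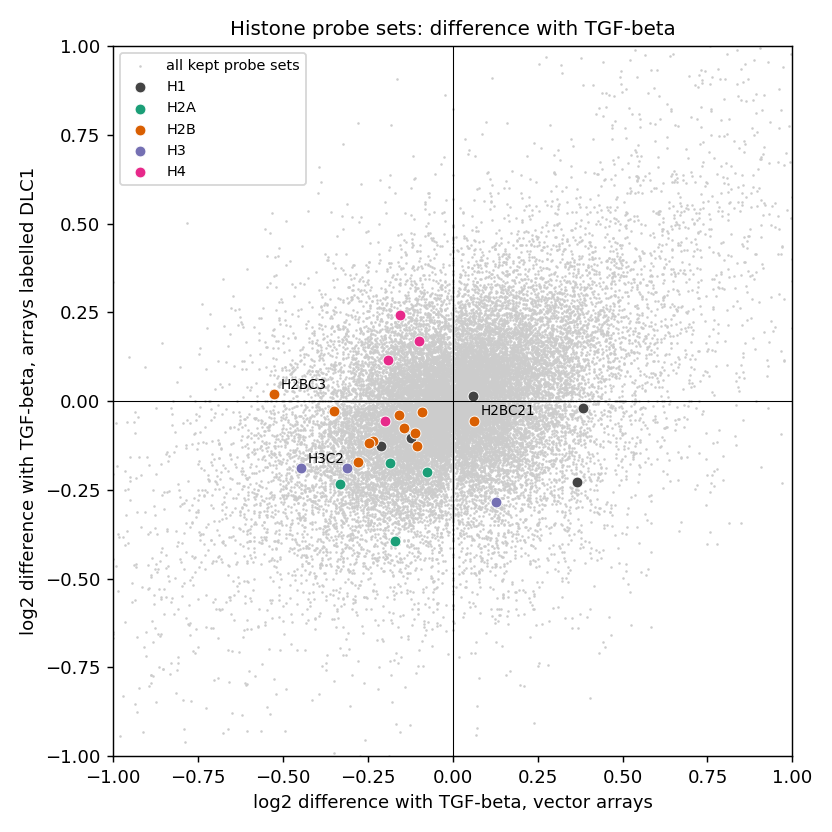
Log2 difference with TGF-beta between the vector arrays (horizontal) and between those labelled DLC1 (vertical) for the 27 kept histone members, coloured by class, over all kept probe sets in grey; grey points beyond 1 on either axis are not shown. The members lie between -0.53 and 0.39 horizontally and between -0.39 and 0.24 vertically, and 18 are below 0 on both axes, against 33.4% of all kept probe sets.

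The most negative values were -0.53 for H2BC3 in the vector arrays and -0.39 for H2AC4 in the arrays labelled DLC1. The most positive were 0.39 for H1-3 in the vector arrays and 0.24 for H4C8 in the arrays labelled DLC1. All 4 H2A members lay below 0 in both backgrounds, with medians of -0.18 and -0.22. The H2B members had medians of -0.16 and -0.08, the H3 members -0.31 and -0.19 and the H4 members, 2 of them of H4C8, -0.17 and 0.14.

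Lists of genes tied to histone supply were set beside the members, each gene by its kept probe set with the highest mean. H1-10 is both a member and a gene of the first list. Of the 10 replication-independent histone genes measured, 8 were kept, none passed 2-fold in any difference, and the medians of the arrays labelled DLC1 against vector were -0.11 without and -0.11 with TGF-beta, and 0.01 and 0 with the arrays centred on the housekeeping list. H2AZ1 read 154 and 134 in the vector arrays and 123 and 114 in the others, differences of -0.32 and -0.23. H3-3A read 0.85 and 0.89 against 0.85 and 0.93. CENPA, the centromeric H3 variant, read 4.86 and 4.11 against 5.85 and 5.53.

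Of 23 genes of histone mRNA processing and decay, none passed 2-fold in any difference. Their medians against vector were -0.23 and -0.10, the second turning to 0.01 with the arrays centred on the housekeeping list, and they went both ways. SLBP, whose protein binds the stem-loop, read 36.2 and 31.5 in the vector arrays and 39.5 and 32.7 in the arrays labelled DLC1. NPAT, a coactivator of histone genes, gave -0.05 and 0.01 by the probe set used, and 0.63 and 0 by another kept one. HINFP, an activator of H4 genes, gave 0.56 and 0.66. Among the processing factors, LSM10 gave -0.82 and -0.60, CSTF3 -0.73 and -0.74, ZNF473 0.72 and 0.74 and CASP8AP2 0.97 and 0.69. Other kept probe sets differed by less, -0.23 and -0.39 or -0.27 and -0.43 for CSTF3 and 0.29 and 0.14 for ZNF473. CSTF2 gave -0.49 and -0.51 by the probe set used. Another kept probe set of CSTF2, which was not counted, gave -1.30 and -1.05, past 2-fold lower in both states.

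Of 21 histone chaperones and deposition factors, none passed 2-fold by the probe set with the highest mean. Without TGF-beta 17 lay below 0, against 48.7% of all kept probe sets, and with it 18 did, against 50.6%. The list's medians were -0.18 and -0.20, and -0.06 and -0.08 with the arrays centred on the housekeeping list. NASP, a chaperone of H3 and H4, read 33.0 and 30.4 in the vector arrays and 22.2 and 19.1 in the others. SUPT16H, a subunit of the FACT complex, gave -0.59 and -0.50. NAP1L4 gave -0.45 and -0.54 by the probe set used. Another kept probe set of NAP1L4, which was not counted, went the other way, by 1.26 and 0.69. The first of these values is past 2-fold higher.

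S-phase and replication genes, whose products copy DNA and supply nucleotides, lay mostly on the same side of 0 as the histone members. Of 26 genes, 19 read lower in the DLC1-labelled array without TGF-beta and 20 with it, against 48.7% and 50.6% of all kept probe sets. The list's medians were -0.40 and -0.45, beside -0.41 and -0.45 for the members. With the arrays centred on the housekeeping list, they were -0.28 and -0.33, beside -0.30 and -0.33. POLE2 fell by 1.53 and 1.40, E2F2 rose by 1.17 without TGF-beta (0.54 in its presence), and no other gene of the list passed 2-fold against vector. RRM2, a subunit of ribonucleotide reductase, read 76.4 and 56.1 in the vector arrays and 40.7 and 28.5 in the others. With TGF-beta, 24 and 26 of the 26 lay below 0, against 50.2% and 53.2% of all kept probe sets. The list's medians were -0.26 and -0.34, and E2F2 fell by 1.02 in the arrays labelled DLC1. The part of S phase in the histone values was not tested.

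**Figure D4:**
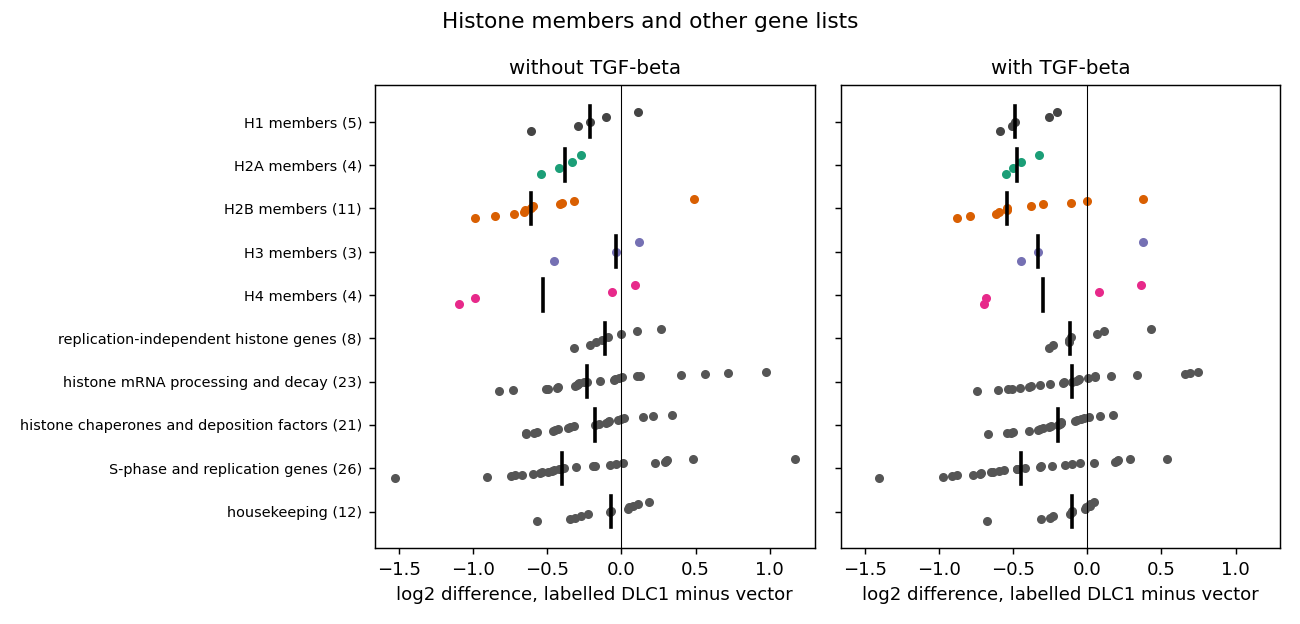
Log2 difference of the arrays labelled DLC1 minus vector, without (left) and with TGF-beta (right), for the kept histone members by class and for genes of 5 other lists, 1 point a probe set or gene; black bars are medians and numbers in parentheses count the points. The bars of the H2B members and of the S-phase and replication genes lie at -0.61 and -0.40 on the left and at -0.54 and -0.45 on the right. Those of replication-independent histone and housekeeping genes lie at -0.11 and -0.07 on the left. With the arrays centred on the housekeeping list, the medians on the left become -0.49, -0.28, 0.01 and 0.04 in the same order.

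The array's control probe sets and RNA without a usual poly(A) tail were read in the same way. The 12 sets for the bacterial poly(A) RNAs dap, lys, phe and thr, controls that are added during sample preparation, lay mostly on the same side of 0 as the histone members. Against vector, all 12 were below 0 without TGF-beta and 11 with it, with medians of -0.14 and -0.10 and lowest values of -0.28 and -0.45. Without TGF-beta, the 5′, middle and 3′ sets of 18S ribosomal RNA read above vector by 0.84, 0.85 and 0.43 on the log2 scale, and with TGF-beta by 0.35, 0.30 and 0.07, higher where the histone members were lower. All 12 probe sets of MALAT1, a nuclear RNA with a tail-less end, were higher too, by 0.18 to 2.27 without TGF-beta and 0.05 to 1.71 with it. RPPH1, the RNA of ribonuclease P, gave -0.65 and -0.83, and SCARNA15, a small Cajal body RNA, -0.44 and -0.28. The 3 sets of GAPDH ran from -0.07 to -0.03 without and from -0.18 to -0.11 with TGF-beta, and those of beta-actin from 0.11 to 0.26 and from -0.29 to -0.10. The part of priming, RNA quality and the spike-in difference in the histone values was not tested.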

How the data were processed

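The authors deposited 1 value table for 4 arrays, whose intensities are on a linear scale with 2 decimals and an unstated divisor. RMA, which corrects background and equalises the arrays, is named per the submitters' processing notes, with version and settings not given in the sources used here. Equalised arrays hide a change shared by most genes, and array medians were 0.38 to 0.39. Here log2 was taken and 4 differences were computed between single arrays, using Python 3.11.15, numpy 2.4.6 and pandas 2.3.3. Gene names come from GEO's platform annotation, and all member genes matched the RefSeq table by gene identifier. A probe set was kept where its highest value reached the median of all values. A 2-fold difference counted as changed, and the same rule run over all kept probe sets gives the background percentages. The 2-fold rule was tested on simulated data. Named genes are the strongest 2 of each class by mean signal, the members with the biggest differences, those nearest the filter and the linker genes. The members, lists and rules were chosen with earlier results of these data known. Alternatives covered the pseudocount of 0.1, filter, centring, quantile normalisation, probe choice and fold size. Protein sequences were not used here.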

Additional observations from a re-analysis of the deposited data

Results flagged for a closer look

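With 1 array a group, none of these differences was tested. H1-6 (207982_at) differed with TGF-beta by 0.37 between the vector arrays and by -0.23 between those labelled DLC1, on the log2 scale, a gap of -0.60. The same gap of -0.60 separates its differences against vector, 0.11 without TGF-beta and -0.49 with it, and the probe set sits at the filter. The other probe set of H1-6, under the filter with a highest value of 0.15, gave -0.21 and -0.24 in both comparisons. For H3C8 the 2 differences with TGF-beta were 0.13 and -0.28, a gap of -0.41. Both probe sets of H4C8 went from below to above 0: 232035_at gave -0.16 and 0.24, a gap of 0.40, and 208180_s_at gave -0.19 and 0.12, a gap of 0.30.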

How the results depend on the processing

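The median member difference kept its sign under every alternative run in each of the 4 comparisons, from -0.44 to -0.21 for the arrays labelled DLC1 against vector without TGF-beta, -0.47 to -0.22 with it, -0.18 to -0.10 for TGF-beta in the vector arrays and -0.11 to -0.05 in the arrays labelled DLC1. With no filter on low values, which adds dim members, the medians against vector were -0.21 and -0.22. With the arrays centred on housekeeping genes, the median over all kept probe sets moved by 0.12 against vector, both without and with TGF-beta. It gave member medians of -0.30 and -0.33, 0 members at least 2-fold lower without TGF-beta, and 17 of 27 members with both arrays labelled DLC1 lowest, against 19.0% of all. It turned the sign of 3 members without TGF-beta (H1-3, H3C8 and H4C11) and of H2BC3 with it. Centring on the median of kept probe sets gave 3 members at least 2-fold lower without TGF-beta. Without _x_at probe sets the median with TGF-beta was -0.33. At 1.5-fold, 10 members were lower without TGF-beta and 7 with it. Leaving out H2BC21, an alternative chosen after seeing the data, gave -0.42 and -0.47. No paired analysis was possible because the labels number no replicates and no result comes from a test. A fit of DLC1 label plus TGF-beta over the 4 arrays, which would take the difference between the TGF-beta states for error, was not run. Leaving out an array empties its group. Dim values near the filter limit what can be read of H3 and the weaker H4 and H1 genes.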
